A study of Mus musculus with 8 samples.

Results

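Cyp2e1, the cytochrome P450 that oxidises ethanol, acetone and small solvents, is described here in mouse white adipose tissue together with 9 other enzyme genes of oxidative and hydrolytic detoxification. The 10 genes are the P450s Cyp2e1, Cyp4b1 and Cyp1b1, the flavin-containing monooxygenases Fmo1 and Fmo2, the alcohol dehydrogenase Adh1, the aldehyde dehydrogenases Aldh1a1 and Aldh1a7, and the carboxylesterases Ces1d and Ces1f. They were chosen by name, with earlier results of these samples known, and the lower Cyp2e1 signal was part of the choice. Their probes were found through the RefSeq accession of each spot. The array held 12 probes for them, among 55681 probes that are not controls, and all 10 genes stood among the 25099 gene names with a usable signal.

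The study compared 4 mice called Ad/NICD, with overexpression of the intracellular domain of Notch1 (N1ICD, the part of the receptor that acts in the nucleus), with 4 wild-type (WT) mice. All 8 were 5 weeks old, of the strain 129 × C57BL/6 and on regular chow, and total RNA of their white fat was hybridised to 4 arrays of 2 colours. Each array carried 1 Ad/NICD and 1 WT sample with the same replicate number. The labels speak of biological replicates. Which promoter drives the transgene, which depot was taken and which sex the mice had: not given in the sources used here.

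The sources differ on which dye marked which genotype, so the direction of every ratio is likely rather than settled. The authors' value table has the red channel as Ad/NICD and the green channel as WT, and the labelling protocol gives red (Cy5) to test samples. The dye tag on each sample reverses this. With those tags every sign below would turn and the levels would change places. No dye was swapped, so a dye effect on a probe and a genotype effect cannot be told apart.

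Median foreground was 31 to 40 intensity units in the Ad/NICD (red) channel and 67 to 79 in the WT (green) channel, and 56.3% to 65.9% of red spots and 55.6% to 60.7% of green spots were well above background. Precision is set by the number of arrays. The brighter Notch1 probe had log2 ratios of 1.24, 0.35, -0.01 and -0.14 in replicates 1 to 4, and whether it lies in the part of the gene that was overexpressed was not tested. Heyl, a Notch target, lay above WT on each of the 4 arrays, at a mean log2 ratio of 2.87 ± 0.17 (SE, n = 4 arrays) and an adjusted p of 0.0399 in limma. The replicate 4 pair stood apart. Its Xist log2 signal was 5.87 in the Ad/NICD and 6.12 in the WT sample. The other Ad/NICD samples had 10.15 to 10.45 and the other WT samples 10.19 to 10.27. Of 4 Y-linked genes, 4 (Ad/NICD) and 3 (WT) were well above background in replicate 4, against 0 or 1 in each other sample. By these genes the replicate 4 pair reads as male and the other pairs as female, though the labels give no sex. Summed markers of mammary epithelium were also low in both samples of the replicate 4 pair. So was the sum of Msln and Krt19, the 2 of 4 mesothelium markers with a usable signal (Upk3b and Wt1 had none). Values without replicate 4 are therefore given below where they bear on a result.

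P450 enzymes sit in the membrane of the endoplasmic reticulum and insert oxygen into fatty acids, steroids and foreign compounds, with electrons passed on by the reductase Por. Flavin-containing monooxygenases oxidise nitrogen and sulfur atoms in the same membrane, and alcohol and aldehyde dehydrogenases carry alcohols, retinol among them, on to acids. Carboxylesterases split esters, and in fat Ces1d and Ces1f are known for hydrolysing stored triglyceride. Cyp2e1 is best known from the liver, where ethanol and fasting raise its protein, and mouse adipocytes express it too.

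Cyp2e1 was much dimmer in Ad/NICD fat than in WT fat. Its log2 signal was 13.36, 12.99, 13.40 and 13.67 in Ad/NICD replicates 1 to 4, against 15.86, 16.35, 16.18 and 15.66 in WT replicates 1 to 4. Every Ad/NICD sample lay below every WT sample, with a gap of 1.99 between the nearest samples. The means were 13.35 ± 0.28 in Ad/NICD and 16.01 ± 0.31 in WT (SD, n = 4 each). The difference was thus several times the spread within either genotype. Per array, the log2 ratio of Ad/NICD over WT was -2.50, -3.36, -2.78 and -1.99, a mean of -2.66 ± 0.22 (SE, n = 4 arrays) and 6.31-fold lower. Of all 25099 gene names, 8 had a lower mean ratio.

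The second Cyp2e1 probe gave the same picture. It had ratios of -2.98, -4.13, -3.30 and -2.24, with a mean of -3.16 ± 0.30, which is 8.95-fold lower. The scanned signal behind the brighter probe was 7055.5 to 10869 intensity units in Ad/NICD and 49104 to 110612 in WT. Saturation flags were not used here, and the second probe, at 1434.5 to 2308 units in Ad/NICD and 13851 to 40749.5 in WT, had a difference that was no smaller. Without replicate 4 the mean ratio of the brighter probe was -2.88.

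Since Cyp2e1 was chosen for this difference, these values describe it and are no test. In the limma fit of the 4 ratios against 0 its adjusted p was 0.0685, over the threshold of 0.05. It was 0.002 with the channels fitted separately and the array as a random block, 0.00224 with no block, 0.0399 with a background offset of 16, 0.0483 over probes well above background in every sample, 0.0343 with trend and robust moderation, and 0.048 without replicate 4. Over the other alternatives it lay between 0.0776 and 0.567.

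The bases before the Cyp2e1 start are shown because this gene has the lowest ratio of the 10. The 250 bases run over chr7:140763569-140763818 on the plus strand of GRCm38.p6 (RefSeq), 5′ to 3′, and capitals mark the matches to the motifs searched.
Cyp2e1: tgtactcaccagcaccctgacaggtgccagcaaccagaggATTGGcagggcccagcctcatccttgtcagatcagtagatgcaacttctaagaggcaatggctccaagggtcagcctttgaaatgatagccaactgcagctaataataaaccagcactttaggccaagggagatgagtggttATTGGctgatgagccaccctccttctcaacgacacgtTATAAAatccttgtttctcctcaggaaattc
The 5 motifs searched on both strands were TGGGAA (the core read by CSL, the DNA-binding partner of the Notch intracellular domain), GCGTG (the core read by the Ah receptor), AGGTCA (a core read by nuclear receptors), the CCAAT box and, as the letters of the TATA box, TATAAA, and no matches overlapped within this window. The Cyp2e1 window held CCAAT on the minus strand 210 and 68 bases before the start and TATAAA 31 bases before it. Of 32851 RefSeq windows of this length, 33.8% held the first of these and 12.4% the other. The CSL core, found in 21.6% of all windows, was not among the letters of this one. RefSeq windows were at hand for 7 of the 10 genes, with 9 windows in all, and Ces1d, Ces1f and Fmo1 had none. Among these 9 windows, the CSL core was in that of Cyp1b1, 162 bases before the start on the minus strand, and the Ah receptor core, found in 28.2% of all windows, was in the same one at 76 bases. The nuclear receptor core, found in 14% of all windows, was in 1 of the Fmo2 windows, 9 bases before the start.

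**Figure D1:**
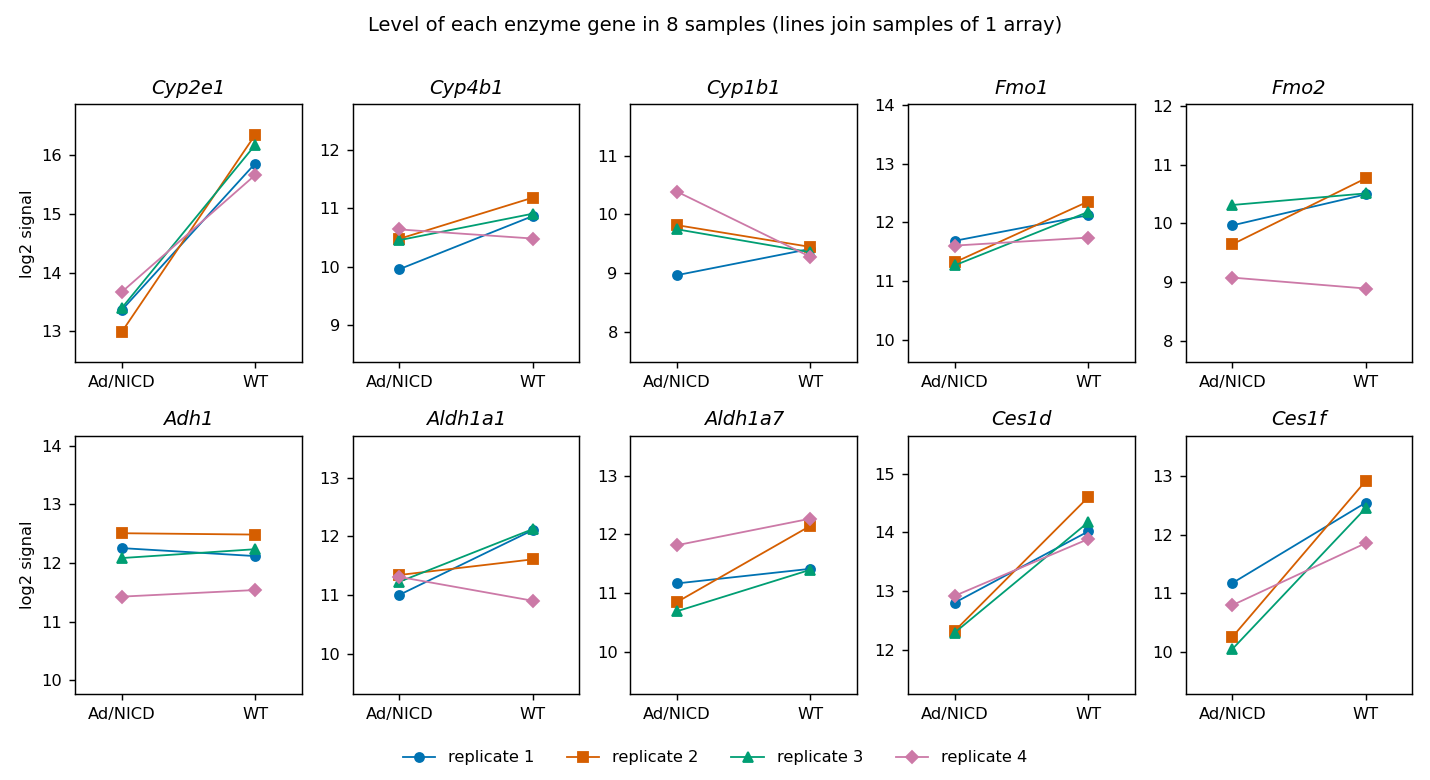
Log2 signal (vertical axis, after loess and quantile normalisation between arrays) of the 10 enzyme genes in Ad/NICD (left) and WT (right) samples. Lines join the 2 samples of an array, and each panel spans the same height. Cyp2e1, Ces1d, Ces1f and, by a narrow gap, Fmo1 slope upward to WT on all 4 arrays with no overlap between genotypes, while Adh1 is nearly flat.

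The carboxylesterases came next. Ces1f, a lipase of the endoplasmic reticulum, had log2 signals of 11.18, 10.26, 10.05 and 10.80 in Ad/NICD replicates 1 to 4, against 12.55, 12.92, 12.45 and 11.86 in WT. All Ad/NICD samples lay below all WT samples. Its mean ratio was -1.87 ± 0.30 (SE, n = 4 arrays), or 3.66-fold lower. Ces1d, also called triacylglycerol hydrolase, had 12.80, 12.32, 12.29 and 12.92 in Ad/NICD, against 14.01, 14.60, 14.17 and 13.88 in WT. It too showed no overlap, with a gap of 0.97 between the nearest samples. Its mean ratio was -1.58 ± 0.23, or 3.00-fold lower. Without replicate 4 the mean ratios were -2.15 for Ces1f and -1.79 for Ces1d. In limma the adjusted p was 0.129 for Ces1f and 0.124 for Ces1d in the ratio fit, against 0.0198 and 0.0131 with the array as a random block.

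Ces1f had a lower ratio than Ces1d on each array. The Ces1d ratio minus the Ces1f ratio was 0.29 on average with an SD of 0.20 over the 4 arrays, and ranged from 0.091 to 0.52. Ces1e lies between them in RefSeq's order of genes on chromosome 8. It was well above background in 0 Ad/NICD and 3 WT samples, and the genotypes overlapped. Its ratio of -0.15 ± 0.071 therefore rests on signals near the floor and is no measure of a difference. Of 18 Ces genes on the array, 7 gave a usable signal, and Ces1f and Ces1d had the lowest ratios, while the highest was 0.11 for Ces2e. Probe letters were not used here, and how far a probe reads a close copy was not tested.

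Of the flavin-containing monooxygenases, Fmo1 was lower on 4 of 4 arrays by a modest amount. Its log2 signal was 11.69, 11.32, 11.27 and 11.60 in Ad/NICD, against 12.12, 12.36, 12.18 and 11.74 in WT. The genotypes did not overlap, but the nearest samples were only 0.054 apart. The mean ratio was -0.63 ± 0.17, and the second Fmo1 probe gave -0.72 ± 0.17, also without overlap. Fmo2, its neighbour on chromosome 1, had 9.96, 9.64, 10.31 and 9.07 in Ad/NICD, against 10.49, 10.77, 10.51 and 8.89 in WT. The 2 samples of replicate 4 were the lowest of their genotypes, and the genotypes overlapped. Its mean ratio was -0.42 ± 0.22, with -0.62 without replicate 4 and -0.18 without replicate 2. The Fmo1 ratio minus the Fmo2 ratio averaged -0.21 with an SD of 0.39, so these neighbours did not differ beyond the spread between arrays.

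Cyp4b1, a P450 that hydroxylates fatty acids and activates some plant toxins, overlapped between genotypes. It had log2 signals of 9.96, 10.48, 10.46 and 10.64 in Ad/NICD, against 10.87, 11.18, 10.91 and 10.48 in WT. Replicate 4 ran the other way, at 0.15, and the mean ratio was -0.48 ± 0.18 (-0.69 without replicate 4). The Cyp2e1 ratio minus the Cyp4b1 ratio was below 0 on each array and averaged -2.18 with an SD of 0.45.

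Cyp1b1, which oxidises oestrogens and polycyclic hydrocarbons, was the 1 gene of the 10 with a mean ratio above 0. It had 8.96, 9.81, 9.74 and 10.39 in Ad/NICD, against 9.41, 9.44, 9.35 and 9.27 in WT. The 4 WT samples were close together and the Ad/NICD samples spread to both sides of them, lowest in replicate 1 and highest in replicate 4. Its mean ratio was 0.36 ± 0.25, but 0.62 without replicate 1, 0.10 without replicate 4 and -0.14 when arrays were centred on their median in place of loess. Summed markers of stromal progenitors, the cells from which adipocytes form, differed by -0.46, 0.49, 0.15 and 1.34 on the same arrays, beside Cyp1b1 ratios of -0.45, 0.37, 0.39 and 1.11. The part of stromal cells in the Cyp1b1 values was not tested.

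Adh1, which oxidises ethanol and retinol, did not differ by more than the spread between arrays. Its log2 signal was 12.26, 12.51, 12.09 and 11.43 in Ad/NICD, against 12.12, 12.49, 12.24 and 11.54 in WT. The larger differences were between arrays, since replicate 4 was the lowest in both genotypes. The mean ratio was -0.03 ± 0.07, and 2 arrays lay on either side of 0. This holds after loess. With arrays centred on their median instead, the mean ratio was -0.46, where the median of all gene names was -0.32. The Cyp2e1 ratio minus the Adh1 ratio was below 0 on each array and averaged -2.63 with an SD of 0.61.

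The aldehyde dehydrogenases Aldh1a1 and Aldh1a7 are adjacent genes on chromosome 19 and close copies. Aldh1a1, which turns retinaldehyde into retinoic acid, had log2 signals of 11.01, 11.34, 11.23 and 11.31 in Ad/NICD, against 12.11, 11.61, 12.13 and 10.90 in WT. The Ad/NICD samples were alike and the WT samples varied, with replicate 4 below all Ad/NICD samples. Its mean ratio was -0.47 ± 0.26, with -0.76 without replicate 4, -0.25 without replicate 1 and -0.32 without replicate 3. Aldh1a7 had 11.16, 10.85, 10.69 and 11.81 in Ad/NICD, against 11.41, 12.15, 11.40 and 12.27 in WT. It was lower on 4 of 4 arrays, at -0.25, -1.30, -0.71 and -0.45, yet the genotypes overlapped because both replicate 4 samples were high. The mean ratio was -0.68 ± 0.18. The Aldh1a1 ratio minus the Aldh1a7 ratio ranged from -0.86 to 1.03 over the arrays, with a mean of 0.21 and an SD of 0.89.

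The windows before these starts are shown because the copies share promoter letters while their ratios differed from array to array. They are chr19:20601718-20601967 on the plus strand for Aldh1a1 (the window, of its RefSeq starts, with the longer shared run) and chr19:20727557-20727806 on the minus strand for Aldh1a7, in GRCm38.p6, 5′ to 3′. Capitals mark the run of 65 bases that both hold at bases 157 to 221.
Aldh1a1: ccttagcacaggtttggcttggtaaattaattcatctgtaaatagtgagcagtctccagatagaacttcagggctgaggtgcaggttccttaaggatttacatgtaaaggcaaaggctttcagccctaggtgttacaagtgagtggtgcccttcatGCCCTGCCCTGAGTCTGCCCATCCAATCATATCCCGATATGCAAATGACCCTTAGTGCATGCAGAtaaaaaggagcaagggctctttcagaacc
Aldh1a7: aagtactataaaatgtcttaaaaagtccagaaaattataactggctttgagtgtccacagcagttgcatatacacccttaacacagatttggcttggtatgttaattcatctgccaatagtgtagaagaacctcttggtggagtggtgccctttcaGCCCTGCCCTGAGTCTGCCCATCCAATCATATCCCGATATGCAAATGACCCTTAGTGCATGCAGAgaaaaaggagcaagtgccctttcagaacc
Of the 100 bases next to the start, 94 were identical between them without gaps, against 17 to 30 between Aldh1a7 and the 6 windows of other genes. Both held CCAAT at 72 bases before the start, and the Aldh1a7 window had a further CCAAT at 137 bases and TATAAA at 244 bases.

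**Figure D2:**
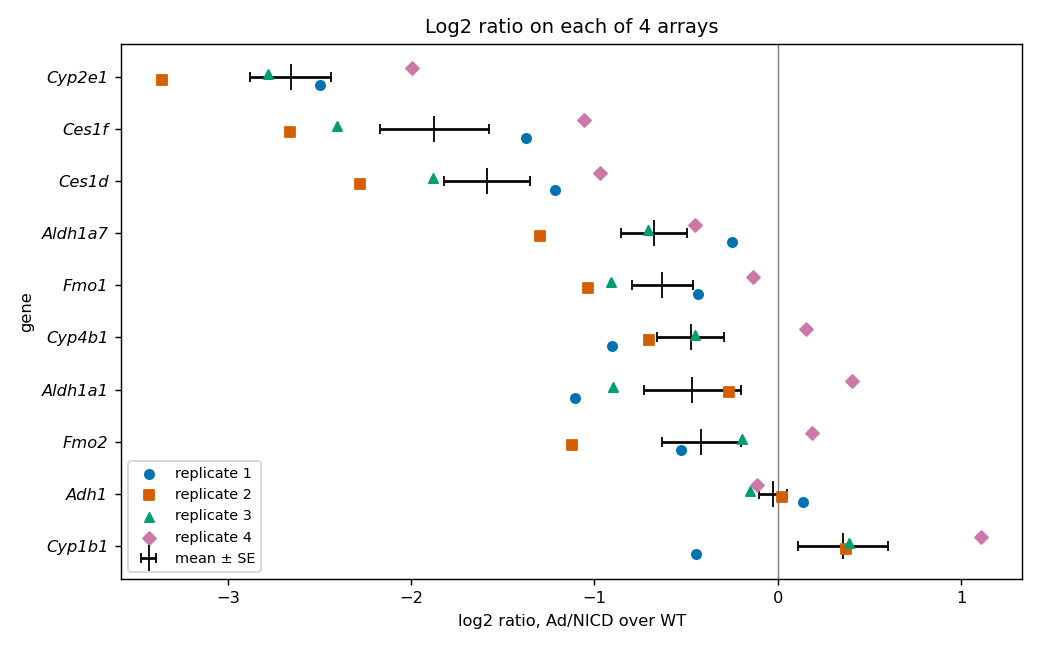
Log2 ratio of Ad/NICD over WT (horizontal axis) for each enzyme gene on the 4 arrays (coloured symbols), with the mean and its SE as black bars. Cyp2e1 lies between -3.36 and -1.99 on the 4 arrays, Ces1f and Ces1d between -2.66 and -0.97, and the other genes come closer to 0 or cross it.

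Across the 10 genes, 9 mean ratios were below 0 and 1 above, with a median of -0.55, against -0.0059 over all gene names. No member passed an adjusted p of 0.05 in the ratio fit, where 0.0478% of all gene names did (0.0199% lower and 0.0279% higher). An unadjusted p under 0.05 was found for 6 members, all lower (Cyp2e1, Cyp4b1, Fmo1, Aldh1a7, Ces1d and Ces1f), against 15.2% of all gene names in either direction (8.98% lower and 6.26% higher). In the random-block fit, 3 members were called lower (Cyp2e1, Ces1d and Ces1f), where 1.14% of all gene names were. The same 3 were called with separate channels and no block, where 1.03% of gene names were called in either direction. Lower on all 4 arrays were 5 members, against 13.3% of all gene names, and 4 members had all Ad/NICD levels below all WT levels, against 5.55%. None was higher on all 4 arrays (11.2% of all gene names) or had all Ad/NICD levels above all WT levels (4.25%). The members were chosen with this contrast in view, so these counts are a description.

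The size of the differences varied by array. The median ratio of the 10 genes was -0.72, -1.08, -0.80 and -0.12 in replicates 1 to 4, while that of all gene names stayed between -0.024 and 0.0065. Cyp2e1, Ces1d, Ces1f and Fmo1 were each lowest in replicate 2 and nearest to 0 in replicate 4. Over the 4 arrays the Cyp2e1 ratio correlated with that of Ces1d at r = 0.964, Fmo1 at 0.949, Ces1f at 0.931, Fmo2 at 0.898 and Aldh1a7 at 0.845. With Cyp4b1 it was 0.643, with Aldh1a1 0.336, with Cyp1b1 0.33 and with Adh1 -0.227. These are descriptions over 4 points that share their arrays.

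Markers of the tissue's cells also differed on these arrays. The summed signal of 10 adipocyte markers was 16.99 to 17.79 on the log2 scale in Ad/NICD and 17.73 to 18.22 in WT, and the difference was -0.42, -1.01, -1.17 and 0.06 in replicates 1 to 4. In tissue RNA, fewer cells of a type and less RNA per cell cannot be told apart. The Cyp2e1 ratio was lower than the adipocyte difference on every array. Cyp2e1 minus the adipocyte sum was -2.07, -2.35, -1.61 and -2.05, a mean of -2.02 with an SD of 0.31. Ces1f averaged -1.24 and Ces1d -0.95 on this measure, each below 0 on 4 of 4 arrays. The sum weighs bright markers most, and single markers varied. Of the 10, 7 had a mean ratio below 0 and 3 above, from -1.83 for Retn to 0.19 for Lep. Retn was thus about as low as Ces1f (-1.87) and lower than Ces1d (-1.58). Fmo1 averaged 0.0051, about the same ratio as the adipocyte sum. The other 6 genes averaged between -0.042 and 0.99.

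Markers of other cell types were set beside the enzymes too. Of 8 hepatocyte markers, 3 gave a usable signal (Alb, Fgb and Ahsg), while Ttr, Apoa1, Apob, Apoh and Cps1 did not. Their summed log2 signal was 8.03 to 9.63 in Ad/NICD and 8.38 to 11.77 in WT, with differences of -1.67, -2.14, -1.38 and -0.36 on the 4 arrays. The 3 differed in direction, with mean ratios of -1.08 for Alb, -1.49 for Fgb and 0.11 for Ahsg. Endothelial markers, all 5 of them measured, summed to 12.65 to 13.41 in Ad/NICD and 13.46 to 13.88 in WT. The 5 skeletal muscle markers summed to 9.53 to 12.52 in Ad/NICD and 10.85 to 16.62 in WT, with the widest gap, -4.10, in replicate 4, where Cyp2e1 differed least. The 5 macrophage markers differed by -0.73, 0.38, -0.14 and 0.87. The 3 brown fat markers (Ucp1, Cidea and Cox8b) summed to 15.46 to 16.56 in Ad/NICD and 14.98 to 17.11 in WT. Their differences were 1.57, -1.44, -0.11 and -0.088 in replicates 1 to 4, so the pairs of replicates 1 and 2 differed in opposite directions. The part of these cells in the enzyme values was not tested.

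**Figure D3:**
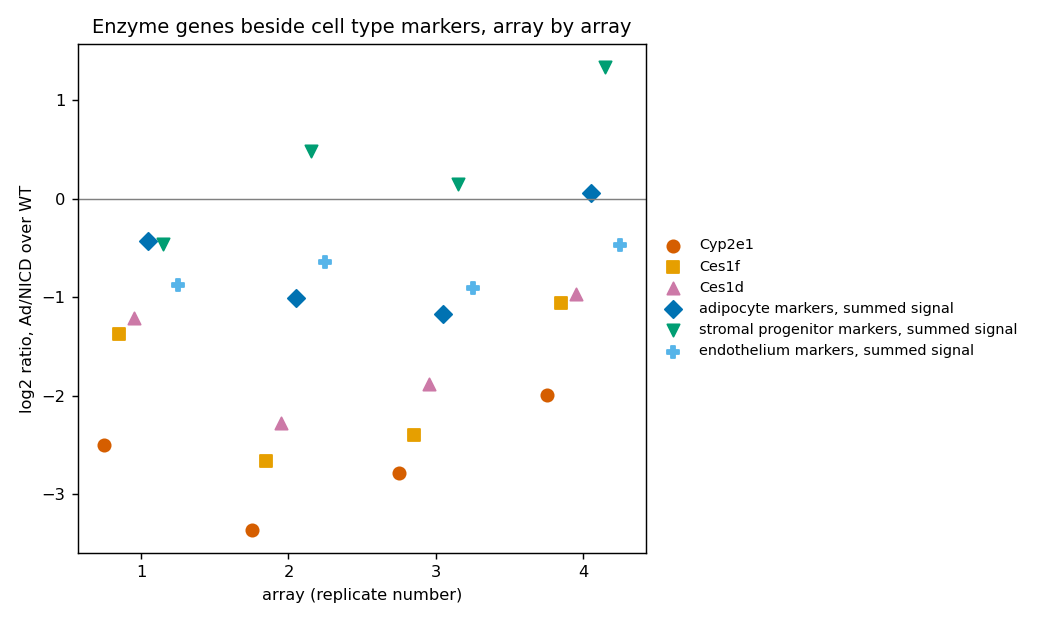
Log2 ratio of Ad/NICD over WT (vertical axis) on each array (horizontal axis) for Cyp2e1, Ces1f and Ces1d and for the summed signal of adipocyte, stromal progenitor and endothelium markers. Cyp2e1 lies below the adipocyte markers on every array, and in replicate 4 the adipocyte sum is at 0.06 while Cyp2e1 is at -1.99.

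Other genes of the same pathways were taken from 8 lists, which were drawn up with results of these samples known. Of their 165 genes, 162 were on the array and 139 gave a usable signal. None of the 139 passed an adjusted p of 0.05 in the limma ratio fit in either direction, where 12 of all gene names did. An unadjusted p under 0.05 was found for 31 on the lower side and 16 on the higher side, against 8.98% and 6.26% of all gene names. The random-block fit called 15 of the 139, 9 lower and 6 higher, against 1.99% of all gene names in either direction. The 9 lower were Fmo5, Aldh2, Aldh6a1, Gsta3, Gstz1, Mgst2, Mgst3, Rbp4 and Rxra, and the 6 higher were Cyp4f15, Aldh3a1, Gstp2, Hmox1, Sod3 and Cyp26b1, with adjusted p-values in that fit from 0.00841 for Rbp4 to 0.0466 for Gstz1. The list medians lay between -0.16 and -0.010. They were all nearer to 0 than the -0.55 of the 10 enzyme genes. In the limma ratio fit, the list genes described below had adjusted p-values from 0.0869 for Rbp4 to 0.392 for Aldh1a2.

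Among 27 measured P450s and partners, with a median of -0.078, Por had a ratio of -0.54 ± 0.14, with every Ad/NICD sample below every WT sample. Cyp2b10, a P450 induced by foreign compounds in liver, had -1.41 ± 0.46, which ranged from -0.028 in replicate 1 to -2.99 in replicate 2. On the higher side, Cyp7b1, an oxysterol hydroxylase, had 1.15 ± 0.24 and Cyp4f15 1.08 ± 0.23. By symbol, the array held 98 Cyp genes, 52 of them with a usable signal. Cyp2e1 was the lowest of these and Cyp2b10 the next, with a median of -0.048 over the 52.

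The other flavin and amine oxidases (9 measured) had a median of -0.044. Fmo5 had -0.66 ± 0.12 on its brightest probe and -0.054 and -0.32 on its dimmer ones, and Maob, a monoamine oxidase, had 0.38 ± 0.12. The 20 measured dehydrogenases had a median of -0.055. The lowest of this list were Aldh6a1, of valine breakdown, at -1.08 ± 0.24 and the folate enzyme Aldh1l1 at -1.04 ± 0.25. The highest were Aldh18a1, of proline synthesis, at 0.64 ± 0.17 and Aldh1a2, a retinaldehyde dehydrogenase, at 0.33 ± 0.15. The Aldh1a2 ratios were 0.0048, 0.00060, 0.67 and 0.64 in replicates 1 to 4, and its genotypes overlapped. By symbol, all 21 Aldh genes on the array gave a usable signal, and the lowest of them was Aldh3b2, which is in none of the lists, at -1.59. The 8 measured carboxylesterases and related hydrolases other than Ces1d and Ces1f had a median of -0.027, with the epoxide hydrolase Ephx2 lowest at -0.72 ± 0.22.

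Glutathione transferases, which couple glutathione to reactive compounds, had a list median of -0.16 over 21 genes, at -0.26, -0.47, -0.41 and 0.24 in replicates 1 to 4. It was -0.32 without replicate 4 and -0.094 without replicate 2. Gsta3 was nearly as low as Cyp2e1. Its log2 signal was 10.53, 9.41, 9.47 and 9.55 in Ad/NICD, against 12.54, 12.81, 12.50 and 11.56 in WT, and the genotypes did not overlap. The mean ratio was -2.61 ± 0.28, with -2.33 on the other probe. The adjusted p was 0.104 in the ratio fit and 0.0113 with the array as a random block. Mgst3, a membrane-bound relative, had -1.11 ± 0.17, while Gstt1 had 0.57 ± 0.17 and Gstp2 0.32 ± 0.066 on its brighter probe and 0.072 on the other.

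In the antioxidant list (22 genes, median -0.060), Gpx3, the secreted glutathione peroxidase, had -0.44 ± 0.11 and Gclc, of glutathione synthesis, -0.44 ± 0.064. Hmox1, which breaks down haem, had 0.74 ± 0.11 with 0.28 on its dimmer probe, and Gss, also of glutathione synthesis, 0.53 ± 0.13. In the retinoid list (19 genes, median -0.010), Rbp4, the retinol carrier secreted by liver and fat, had -2.23 ± 0.21, and Rxrg, a retinoid X receptor, -0.82 ± 0.16 with -0.22 on its other probe. Cyp26b1, which degrades retinoic acid, had 0.73 ± 0.11 and the retinol dehydrogenase Rdh5 0.46 ± 0.14. Of 13 measured regulators, with a median of -0.076, Cebpa, a transcription factor of adipocytes and liver, had -0.93 ± 0.17 and the glucocorticoid receptor Nr3c1 -0.44 ± 0.15, with -0.21 on its other probe.

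**Figure D4:**
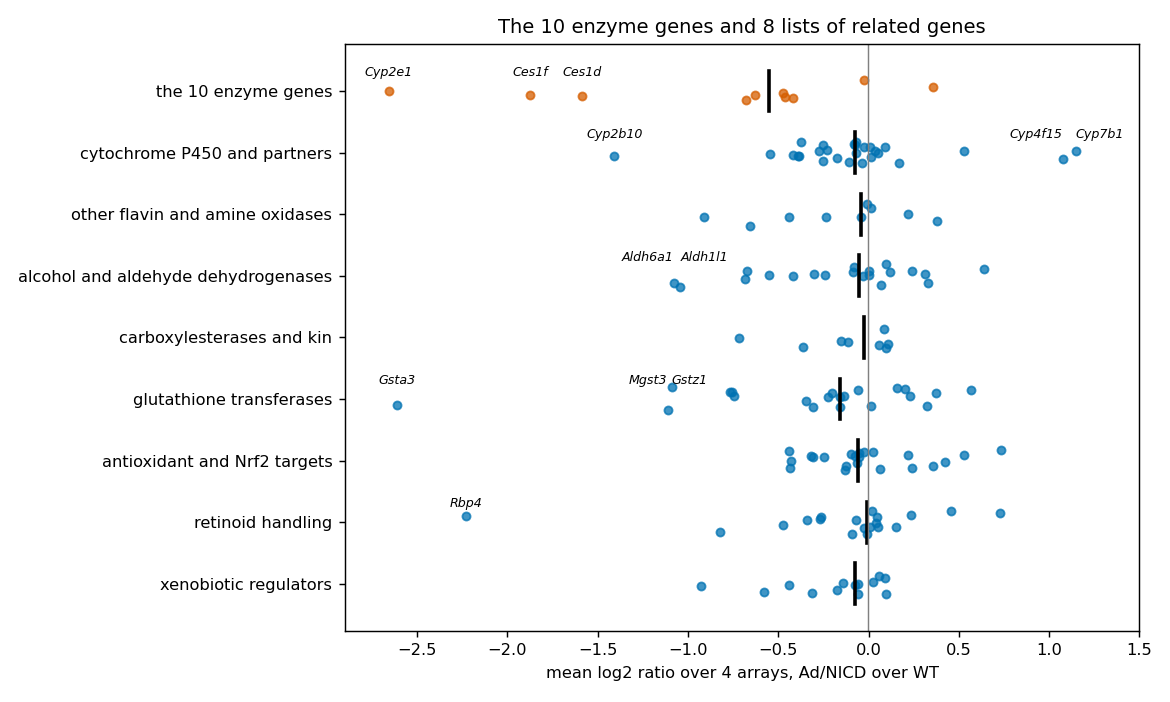
Mean log2 ratio over 4 arrays (horizontal axis) for each measured gene (points) of the 10 enzyme genes and of 8 lists of related genes, with list medians as black bars and the median of all gene names as a grey line. Genes 2-fold or more from 0 are named, and the list medians lie between -0.16 and -0.010, against -0.55 for the 10 enzyme genes.

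Over all gene names, likeness to Cyp2e1 was measured as the correlation of the log2 levels of the 8 samples. The levels of Cyp2e1 fall into 2 sets by genotype, so r carries the gap between genotypes along with the order within them. The 5 highest were Slc43a1, an amino acid transporter, at r = 0.9944, Rida, a deaminase of reactive enamines, at 0.9931, Lrtm1 at 0.9882, Cept1, of phospholipid synthesis, at 0.9873, and Slc13a4, a sulfate transporter, at 0.9833. Their mean ratios were smaller than that of Cyp2e1, at -1.38 for Slc43a1, -0.57 for Rida, -1.62 for Lrtm1, -0.27 for Cept1 and -1.98 for Slc13a4. Among the enzyme genes, Ces1d had r = 0.9785, Ces1f 0.9453 and Fmo1 0.9022, and Adh1 had 0.03.

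By the root mean square difference of the 4 ratios, which also takes the size into account, Gsta3 was nearest to Cyp2e1, at 0.276 on the log2 scale. B3galt2, a galactosyltransferase, followed at 0.371. It is in none of the lists and passed the threshold in the limma ratio fit, at an adjusted p of 0.0399. Then came the major urinary protein genes Mup17 at 0.470 and Mup18 at 0.472, and Cldn22, a claudin, at 0.489. The Mup genes are near-identical copies, so their probes may read each other. Of the enzyme genes, Ces1f was nearest, at 0.833, followed by Ces1d at 1.08.

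**Figure D5:**
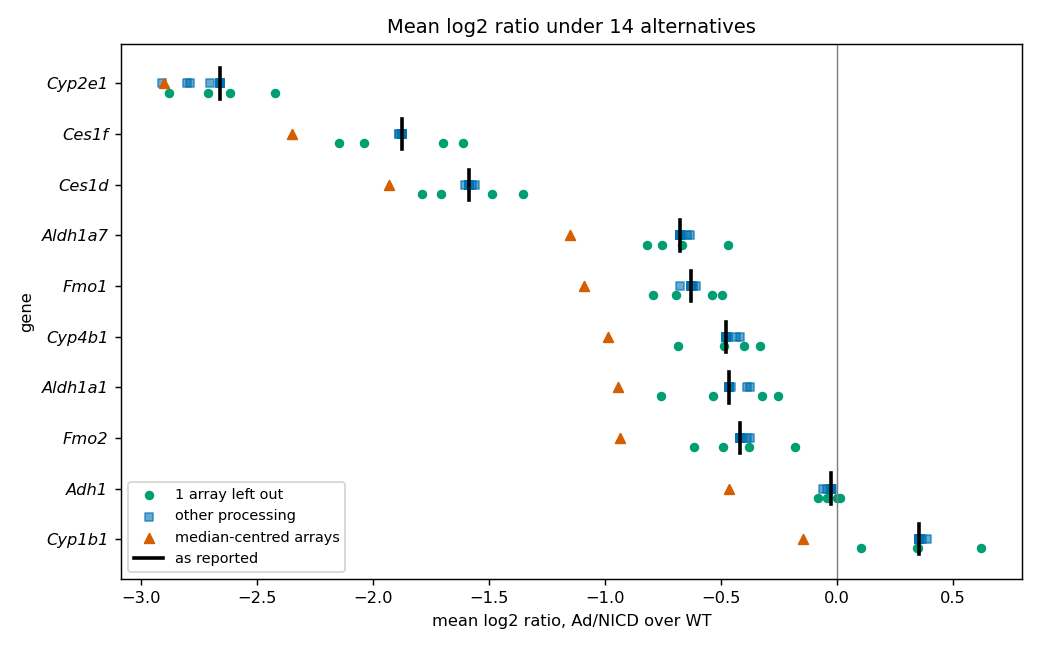
Mean log2 ratio of Ad/NICD over WT (horizontal axis) of each enzyme gene as reported (black bars) and under 14 alternatives, namely 1 array left out (circles), median-centred arrays (triangles) and other processing (squares). Cyp2e1 stays between -2.91 and -2.42, and for Cyp1b1 and Adh1 the alternatives lie on both sides of 0.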

How the data were processed

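The members and gene lists were chosen with earlier results of these data known. The submitters' processing notes name Agilent Feature Extraction 11.5. Its deposited tables give each spot as intensity (median foreground and background, background-subtracted and processed signals) and a log10 ratio of red over green, which was not used. The authors' deposited value table is on a log2 scale: each column equalled 1 channel's log2 processed signal minus a constant (SD of the difference 0.0058 to 0.0117, against 0.609 to 0.688 for the other channel), with column medians of -3.84 to -3.52 and the 75th percentile at 0. How it was made: not given in the sources used here. Same-numbered WT and Ad/NICD scanner tables were identical, so 4 arrays were read.

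Background was corrected with normexp (offset 50) and loess was run within each array, control spots weighing 0 (limma 3.58.1, R 4.3.3). Of 55681 probes, 28026 matched a RefSeq symbol and 27655 kept the files' name. A probe was kept if 1 or both channels were well above background on 3 or more of the 4 arrays. For the array of replicate 1 this flag was rebuilt from background-subtracted signal over 6.27 (green) or 5.81 (red) robust SDs of the negative controls, multiples that gave 97.8% to 100% of the scanner's flags on the other arrays. Each gene name was represented by its brightest kept probe. Of the 25099 gene names, 15826 had a RefSeq symbol, and shares and medians of all gene names include the others too. The 4 log2 ratios were tested against 0 with lmFit and eBayes, with Benjamini-Hochberg adjustment over 25099 gene names. The fit was tested on simulated data. Levels are log2 channel signals after loess and quantile normalisation of the mean log2 brightness of each probe, which gives it the same distribution on every array. A marker sum is the log2 of the summed linear levels.

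The array is the pair. Deviations of same-numbered samples from their group means correlated at 0.175, 0.166, 0.564 and 0.528 in replicates 1 to 4, although for replicate 1 a sample of another number reached 0.285.

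The rule for named genes took all 10 members, the 5 gene names most like Cyp2e1 on each measure and, per list, every gene past the threshold and the 2 highest and 2 lowest ratios with the same sign on all 4 arrays. Family counts by symbol and neighbours were added beside it. Other alternatives were processed signals, an offset of 16, median centring, the authors' table, other probe filters, the mean over probes, trend and robust moderation, separate channels with and without a block, and each array left out.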

Additional observations from a re-analysis of the deposited data

Results flagged for a closer look

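Of 122 groups of 4 values examined, 6 held a value far from the other 3 by Dixon's criterion, where chance sets apart about 1 group in 20. The Fmo2 level of WT replicate 4 was 8.89, against 10.49 to 10.77 in the other WT samples. The Fmo5 level of Ad/NICD replicate 4 was 9.80, against 9.67 to 9.69 in the other Ad/NICD samples. The Maob level of WT replicate 2 was 10.73, against 10.29 to 10.33. The Gsta3 level of Ad/NICD replicate 1 was 10.53, against 9.41 to 9.55. The Hmox1 level of Ad/NICD replicate 2 was 11.86, against 11.14 to 11.26. The Rbp4 log2 ratio of replicate 2 was -3.03, against -2.08 to -1.91 on the other arrays. Of these genes, Fmo2 is among the 10 enzyme genes.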

How the results depend on the processing

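The mean log2 ratio of Cyp2e1 kept its direction under all 14 alternatives, between -2.91 and -2.42 (-2.88 to -2.42 with 1 array left out), as did those of Ces1f (-2.35 to -1.61) and Ces1d (-1.93 to -1.35). The number of the 10 genes past the threshold was 0 in the ratio fit. It was 1 (Cyp2e1) with an offset of 16, with probes well above background in every sample, with trend and robust moderation and without replicate 4, 3 with separate channels under a random replicate block or no replicate block, and 0 to 1 over the left-out arrays. The number of all gene names past the threshold was 12 in the ratio fit, 4 with processed signals and 3 with the authors' table. It was 0 with median centring and 0 with no filter. An offset of 16 gave 17, trend and robust moderation 17, and the mean over probes 10. With probes well above background in every sample it was 17 of 21838. Separate channels gave 258 without the replicate block and 500 with it as a random block. With 1 array left out it was 0 to 43, 43 being without replicate 4 and 0 without replicate 1, 2 or 3. Median centring moved the median of all gene names to -0.32 and, with it, the list medians to -0.38 (P450s), -0.33 (flavin and amine oxidases), -0.47 (dehydrogenases), -0.29 (carboxylesterases), -0.59 (glutathione transferases), -0.38 (antioxidant), -0.41 (retinoid) and -0.56 (regulators), and Cyp4b1 to -0.98, Fmo1 to -1.09, Aldh1a7 to -1.15, Adh1 to -0.46 and Cyp1b1 to -0.14. The flavin and amine oxidase median was -0.19 with the authors' table and -0.24 over the 7 genes of the stricter filter, and the regulators' median was -0.16 without replicate 4 and ran from -0.16 to -0.035 over the left-out arrays. The cause of these shifts was not tested. With 4 arrays and no dye swap, the spread between mice and any dye effect limit all values, and the offset of 50 pulls the ratios of dim probes toward 0.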
